A study of Mus musculus with 6 samples.

Results

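The dystrophin glycoprotein complex genes Dmd, Utrn, Dag1, Sgca, Sgcb, Sgcd, Dtna and Lama2 were described in RNA sequencing of adult mouse hearts. They were chosen by symbol, as 8 of the 20254 genes listed, and all 8 reached the expression filter that left 13823 genes for testing. The hearts came from 6 C57BL/6 mice, 3 labelled as knockout (KO) of Trdn-as and 3 wild type (WT). Trdn-as is named as an antisense transcript of the triadin gene, and the labels give neither the allele nor whether mice shared a litter. In each genotype replicates 1 and 2 were 14 months old and replicate 3 was 5 months old, so the younger age has 1 heart per genotype. Tests therefore measure the spread between these hearts, and the test of an interaction of genotype and age only that between the 14-month hearts.

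The complex is a membrane assembly that ties the cytoskeleton of muscle cells to the matrix around them. Dystrophin binds actin inside the cell and the transmembrane dystroglycan at the sarcolemma, dystroglycan binds laminin outside through sugar chains, and the sarcoglycans brace that link. In heart its loss is known from the cardiomyopathies of muscular dystrophy, in which utrophin can stand in for dystrophin. The question addressed was whether the transcripts of this complex differed between KO and WT hearts and between the ages.

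Expression was given as 1 value per gene and library, treated here as normalized between libraries. How the values were normalized is not stated. The library totals ran from 19.8 to 21.6 M normalized units in KO and from 19.9 to 23.5 M in WT. Trdn, the gene at the targeted locus, averaged 4165 in KO and 6802 in WT hearts (log2 fold change −0.71, SE 0.10, limma adjusted p = 0.261), and each KO heart was below the WT heart of its number. Trdn-as itself was not analysed here. All 6 defining cardiomyocyte markers were abundant in every library, and their summed values ran from 478894 to 546390 in KO and from 503008 to 987987 in WT, where WT-3 stood apart at the top. The skeletal muscle myosins Myh1 and Myh2 were at no more than 1.84 and 1.24. Of the same marker list Tnnt3, Mylpf, Tnni2 and Actn3 were at no more than 24.2. Others were high: Ckm averaged 18911 in KO and 25475 in WT, Acta1 1688 and 2468, and Myh7b 817 and 790. The list summed to 20184 to 22422 in KO and 20246 to 41009 in WT. Y-linked genes summed to 82.2 in KO-2 and 54.9 in WT-2, against 2496 to 4482 in the other libraries. By these sums KO-2 and WT-2 read as female hearts and the others, with KO-3 and WT-3, as male. Sex was not in the models and is partly mixed with age, while the genotypes match in it. The alternative without KO-2 and WT-2 compares the ages within hearts read as male. It also holds fewer hearts, so the part of sex in calls lost there was not tested. As these are whole hearts, fewer cells of a type and less RNA per cell cannot be told apart.

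Promoter windows are shown for Dag1 and Sgcd, which passed the test between ages in opposite directions, and for Dmd, whose own value did not. The call of Sgcd was lost under several alternatives, given below. The windows are RefSeq sequences of build GRCm38.p6, 250 bases before to 50 after a transcript start, 5′ to 3′ on the gene's strand. Windows were found for 7 of the 8 genes and not for Dtna, with a second start for Dmd and for Dag1. The Sgcd window lies at a start within the longer annotated gene. Capitals mark the GC box GGGCGG, the E-box CANNTG, the M-CAT element CATTCC and the TATA box TATAAA, each on either strand.
Dag1, chr9:108263909-108264208, minus strand: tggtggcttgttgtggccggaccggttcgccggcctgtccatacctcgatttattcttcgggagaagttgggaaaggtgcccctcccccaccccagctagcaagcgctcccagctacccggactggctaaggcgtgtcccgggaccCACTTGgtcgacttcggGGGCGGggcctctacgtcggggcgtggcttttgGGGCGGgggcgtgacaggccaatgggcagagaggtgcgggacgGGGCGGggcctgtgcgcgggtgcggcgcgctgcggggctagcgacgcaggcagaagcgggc
Sgcd, chr11:47379276-47379575, minus strand: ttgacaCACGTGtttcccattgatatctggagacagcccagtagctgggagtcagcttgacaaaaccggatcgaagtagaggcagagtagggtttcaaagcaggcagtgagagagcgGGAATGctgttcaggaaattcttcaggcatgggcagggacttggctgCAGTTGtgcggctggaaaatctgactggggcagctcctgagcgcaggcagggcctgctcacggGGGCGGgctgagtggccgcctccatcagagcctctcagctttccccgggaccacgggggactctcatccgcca
Dmd, chrX:82948620-82948919, plus strand: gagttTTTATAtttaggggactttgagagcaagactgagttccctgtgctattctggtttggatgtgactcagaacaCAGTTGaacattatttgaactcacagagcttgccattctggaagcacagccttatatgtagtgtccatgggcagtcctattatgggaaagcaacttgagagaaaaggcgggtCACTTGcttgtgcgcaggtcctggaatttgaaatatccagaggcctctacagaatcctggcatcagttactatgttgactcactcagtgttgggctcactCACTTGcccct
The Dag1 window was 69.7% G and C and held 3 GC boxes and 1 E-box. That of Sgcd (59% G and C) held 1 GC box, 2 E-boxes and 1 M-CAT element, and that of Dmd (45.7% G and C) 3 E-boxes and 1 TATA box. The second Dmd window, chrX:85048045-85048344, was 62.7% G and C and held 3 GC boxes, 0 E-boxes and 0 TATA boxes, and the second of Dag1, chr9:108263766-108264065, was 75.3% G and C and held 4 GC boxes and 1 E-box. Among 32851 windows of this length in the table, a GC box was found in 35.7%, an E-box in 72.3%, an M-CAT element in 14.7% and a TATA box in 13.6%. No match overlapped another in the windows shown, and a match is a description of these letters only.

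Lama2 encodes the alpha chain of the laminin of muscle basement membranes, the main matrix ligand of dystroglycan. The gene lies on chromosome 10 (26980036 to 27619758, minus strand, mm10). Lama2 had values of 1576, 1667 and 1357 in KO-1, KO-2 and KO-3, against 1685, 1760.4 and 1719 in WT-1, WT-2 and WT-3. Every KO heart lay below every WT heart, by a small margin at 14 months. The means were 1533 ± 159 in KO and 1721 ± 38.0 in WT hearts (SD, n = 3 each). The fitted log2 fold change was −0.17 (SE 0.11, 95% interval −0.43 to 0.08), with a limma adjusted p of 0.745, so the gene was not called. Lama2 was the only member of the complex whose KO and WT values did not overlap, 1 of 8, and 5.77% of all genes tested did the same in either direction (2.88% higher and 2.89% lower in KO). Fibroblasts also make this laminin, and 10 fibroblast markers summed to 13756 to 22770 in KO and 20428 to 22668 in WT, with KO-3 at the low end, and 9 of the 10 had a fitted KO minus WT difference below 0. The part of these cells in the Lama2 values was not tested. The antisense gene Gm48084 overlaps Lama2 exons, and as strand is not stated, reads of the pair cannot be told apart.

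Dag1 encodes dystroglycan, the receptor that is cut into an outer laminin-binding and an inner membrane-spanning subunit. It lies on chromosome 9 (108204634 to 108263958, minus strand). Values of Dag1 were 7517, 6918 and 2339 in KO-1, KO-2 and KO-3, and 7237, 6053 and 2631 in WT-1, WT-2 and WT-3. The genotypes overlapped, and in both the 5-month heart was far below the 14-month hearts. KO and WT averaged 5591 ± 2833 and 5307 ± 2392 (SD, n = 3 each), a log2 fold change of 0.03 (SE 0.13, 95% interval −0.27 to 0.32, limma adjusted p = 0.960).

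The sarcoglycans are small membrane proteins that assemble in the secretory pathway before they join dystroglycan. Sgca, the alpha subunit (chromosome 11, 94962791 to 94976327, minus strand), had 1549, 1528 and 966 in KO-1, KO-2 and KO-3, against 1256, 1294 and 1270.2 in WT-1, WT-2 and WT-3. The WT values were nearly level, whereas KO hearts lay above WT at 14 months and below it at 5 months. Sgcb, the beta subunit (chromosome 5, 73632749 to 73647790, minus strand), had 1980.1, 2313 and 1968 in KO, against 2156, 2192 and 2848 in WT, replicates 1 to 3 in order. WT-3 was the highest, and the remaining values of both genotypes were mixed.

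Sgcd, the delta subunit (chromosome 11, 46896253 to 47988969, minus strand), had 366, 435 and 814 in KO-1, KO-2 and KO-3, against 369, 353 and 430.3 in WT-1, WT-2 and WT-3. KO-3 stood well above any other library, and the rest overlapped. Of the 8 members Sgcd had the largest fitted KO minus WT difference, 0.40 log2 (SE 0.18, 95% interval −0.01 to 0.81), which did not pass (limma adjusted p = 0.745). In the 14-month hearts alone the difference was 0.15, so the fitted value rests mostly on KO-3. Sgca differed by 0.05 (SE 0.15, limma adjusted p = 0.935) and Sgcb by −0.19 (SE 0.14, limma adjusted p = 0.747).

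Dmd encodes dystrophin, whose full-length and shorter products come from several promoters and are summed in 1 value here. The gene spans chromosome X from 82948870 to 85206141 on the plus strand. Dmd had 2062, 2457 and 2050.02 in KO-1, KO-2 and KO-3, against 1805, 2457 and 3186 in WT-1, WT-2 and WT-3. KO hearts lay within the WT range, and the 5-month WT heart was the highest of the 6 libraries. The means were 2190 ± 232 in KO and 2483 ± 691 in WT hearts (SD, n = 3 each), with a log2 fold change of −0.15 (SE 0.19, 95% interval −0.58 to 0.29, limma adjusted p = 0.830). At 14 months alone the sign turned, to 0.10.

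Utrn encodes utrophin, the autosomal relative of dystrophin that binds the same partners (chromosome 10, 12382188 to 12869365, minus strand). Its values were 1819, 1672 and 1505 in KO-1, KO-2 and KO-3, and 1676, 1633 and 1178 in WT-1, WT-2 and WT-3. Each KO heart was above the WT heart of the same number, by 0.12, 0.03 and 0.35 log2, yet the groups overlapped. The fitted difference was 0.17 (SE 0.11, 95% interval −0.09 to 0.43, limma adjusted p = 0.745). Utrn per kilobase of exon stood at 1.23, 0.947 and 1.02 times Dmd in KO-1, KO-2 and KO-3, against 1.29, 0.925 and 0.514 times in WT-1, WT-2 and WT-3. WT-3 was the only heart in which Utrn was clearly under Dmd on this scale.

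Dtna encodes alpha-dystrobrevin, a cytoplasmic partner of dystrophin that carries syntrophins (chromosome 18, 23415135 to 23659715, plus strand). Dtna had 648, 658 and 1723 in KO-1, KO-2 and KO-3, against 804, 616 and 1484 in WT-1, WT-2 and WT-3. Both 5-month hearts were far above all 14-month hearts, and the genotypes overlapped. The KO minus WT difference was −0.001 log2 (SE 0.14, 95% interval −0.32 to 0.32, limma adjusted p = 0.999). The same limit of strand holds here, since the annotated Gm47898 overlaps Dtna exons on the opposite strand.

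**Figure D1:**
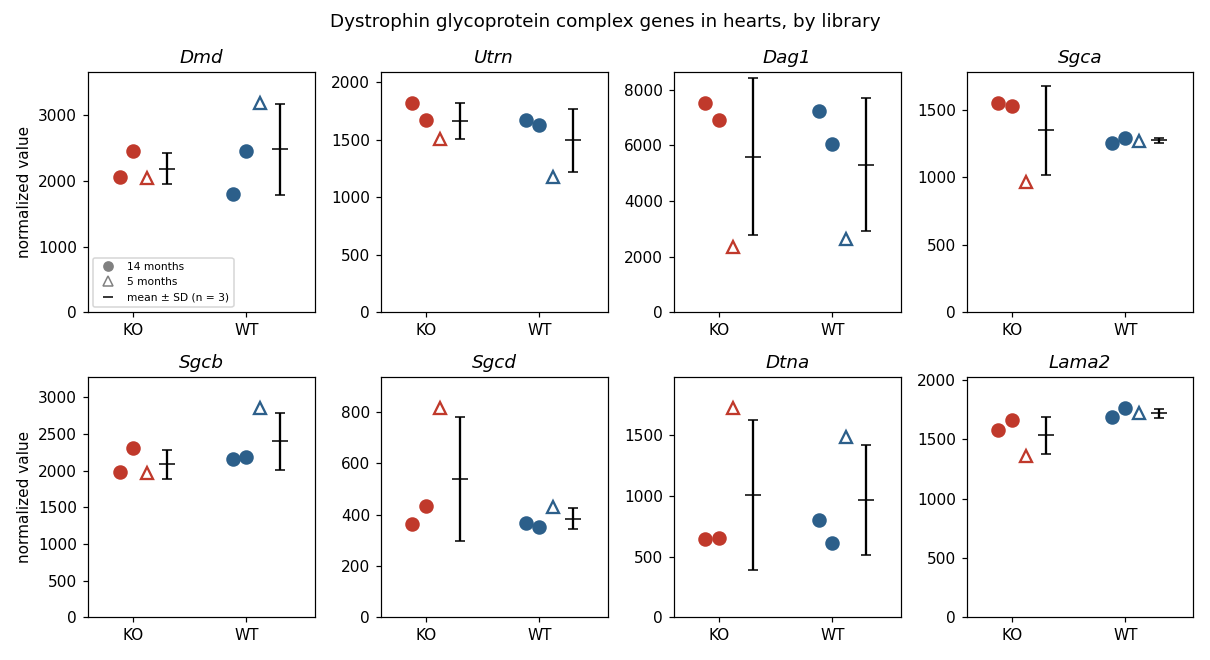
Normalized values of the 8 genes (vertical axes, each from 0) in KO hearts on the left and WT hearts on the right. Filled circles are 14-month and open triangles 5-month libraries, and black bars are the mean ± SD of 3. Dag1 and Dtna part by age in both genotypes, and Lama2 is the panel in which KO (1357 to 1667) and WT (1685 to 1760.4) do not overlap.

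Between KO and WT hearts, with age as a covariate, 0 of the 8 genes passed an adjusted p of 0.05 by limma, where 0% of all genes tested were called. At an unadjusted p under 0.05 the count was 0 of 8 by limma and 1 of 8 by limma-voom, which also called 0 of 8. Such a p was found for 6.08% of all genes tested by limma and for 6.18% by limma-voom. Of the 8 fitted differences 4 were above and 4 below 0, with a median of 0.01 log2 against −0.02 over all genes tested. The intervals above limit what these hearts could show: a difference of 0.5 log2 lies outside the interval of Dag1, Sgca, Dtna, Lama2 and Utrn in both directions, and inside that of Dmd, Sgcb and Sgcd in 1 direction. With 14-month hearts alone, 0 of 8 were called.

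**Figure D2:**
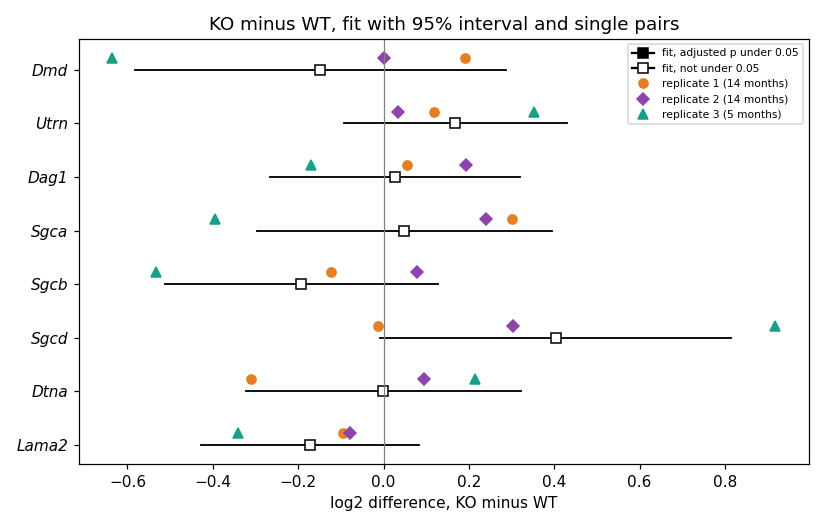
KO minus WT differences on the log2 scale for each gene. Squares with lines are the fit and its 95% interval, open because no adjusted p was under 0.05, and coloured symbols are the differences between libraries of the same replicate number. The 5-month pair lies at the edge for most genes, at −0.64 for Dmd and 0.92 for Sgcd.

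The difference between genotypes was then set against age. In the 5-month pair the KO minus WT differences of Dmd, Sgcb, Sgca and Lama2 were −0.64, −0.53, −0.40 and −0.34 log2, while Sgcd was higher by 0.92, Utrn by 0.35 and Dtna by 0.22, and Dag1 stood at −0.17. This pair has no replicate check. In the 14-month hearts the mean differences were 0.10 for Dmd, −0.02 for Sgcb, 0.27 for Sgca, −0.09 for Lama2, 0.15 for Sgcd, 0.08 for Utrn, −0.11 for Dtna and 0.12 for Dag1. The interaction of genotype and age was called for 0 of 8 genes by limma, where 2.08% of all genes were called (1.19% higher and 0.883% lower), and 0 of 8 by limma-voom. At an unadjusted p under 0.05 it counted 4 of 8 by either tool, where 23.2% of all genes did so by limma. The smallest adjusted p was that of Sgca (0.67 log2, SE 0.16, limma adjusted p = 0.0748). Sgcd stood at −0.77 (SE 0.22, limma adjusted p = 0.109). When the libraries were rescaled to the total outside mitochondrially encoded genes, Sgcd passed (−1.04, limma adjusted p = 0.0415). Cardiomyocyte markers summed to 512546 in KO-3 and 987987 in WT-3, all 6 had an interaction above 0 and 2 of them passed, and their part in the 5-month differences was not tested.

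Of the 8 genes Dag1 and Dtna differed most between the ages. Across both genotypes 3 of the 8 genes passed between 14 and 5 months by limma, 1 higher and 2 lower, where 33.7% of all genes were called. That share is near the background. Dag1 rose to an average of 6931 ± 635 at 14 months (SD, n = 4), against 2485 ± 206 at 5 months (SD, n = 2), a ratio of 2.79. Its log2 difference was 1.48 (SE 0.13, 95% interval 1.17 to 1.79, limma adjusted p = 4.40e-04), with 1.62 within KO and 1.33 within WT. Every 14-month heart was above both 5-month hearts.

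Dtna fell to 682 ± 83.8 at 14 months (SD, n = 4), against 1603 ± 169 at 5 months (SD, n = 2), 0.425 times the younger level. The log2 difference was −1.24 (SE 0.15, 95% interval −1.58 to −0.90, limma adjusted p = 0.00108), at −1.40 within KO and −1.07 within WT. All 4 of the 14-month hearts were below both 5-month hearts. Dag1 and Dtna passed under every alternative that was run, with adjusted p-values up to 0.00745 for Dag1 and up to 0.0107 for Dtna. Atrial markers moved in the direction of Dtna: 4 of 4 were called lower at 14 months, and their sums were 12591 to 23359 at 14 months and 38743 to 60737 at 5 months. Of the 6 cardiomyocyte markers 1 was called higher and 3 lower. The part of either in these age differences was not tested.

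Sgcd also passed, at −0.64 log2 (SE 0.19, limma adjusted p = 0.0331). It averaged 381 ± 37.2 at 14 months (SD, n = 4) and 622 ± 271 at 5 months (SD, n = 2), and the ages overlapped. This call was lost without KO-3 (−0.25, limma adjusted p = 0.268), without KO-1, KO-2 or WT-2 (−0.53, −0.64 and −0.68), with the rescaling outside mitochondrial genes (−0.44) and without the trend and robust options. The fitted age difference of Sgcd thus depends on the 5-month KO heart.

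The other members did not pass between the ages. Utrn was higher in every 14-month heart than in either 5-month heart, at 1700 ± 81.6 (SD, n = 4) against 1342 ± 231 (SD, n = 2), with a log2 difference of 0.35 (SE 0.12, limma adjusted p = 0.0550). It passed with quantile normalization (adjusted p = 0.0368), with the rescaling outside mitochondrial genes and without KO-3. Sgca stood at 0.34 (SE 0.16, limma adjusted p = 0.138), with 0.67 within KO and 0.01 within WT. It passed without WT-3 (0.67, adjusted p = 0.00535) and with the rescaling outside mitochondrial genes (0.54, adjusted p = 0.0170). Dmd differed by −0.23 (SE 0.20, limma adjusted p = 0.404), at 0.13 within KO and −0.60 within WT. Sgcb (−0.13, SE 0.15) and Lama2 (0.13, SE 0.12) had adjusted p-values of 0.513 and 0.428 by limma. In 3 of 8 genes the ages did not overlap (Dag1 and Utrn above, Dtna below), where 50.7% of all genes did the same (25.7% above, 25% below). Anything else that differed between the 5-month and 14-month libraries cannot be told apart from age. Sex, as read from Y-linked genes, was the same at both ages only in the fit without the libraries numbered 2.

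**Figure D3:**
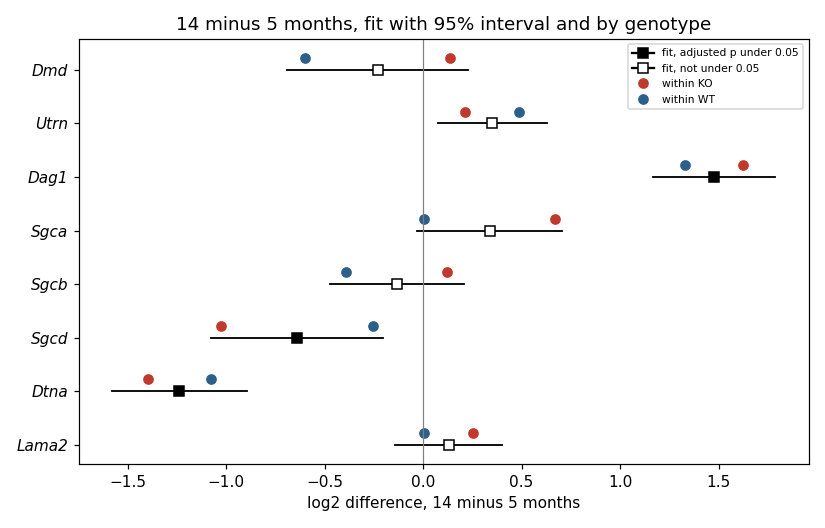
Log2 differences of 14 minus 5 months for each gene. Squares with lines are the fit and its 95% interval, filled where the adjusted p was under 0.05, and circles are the differences within KO (red) and within WT (blue). Dag1 (1.48) and Dtna (−1.24) lie on opposite sides with both genotypes alike in sign, whereas the Sgcd circles stand at −1.03 within KO and −0.25 within WT.

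Levels were compared between genes per kilobase of merged exons. Whether the values already hold a correction for length is not stated. Dag1 averaged 857 per kb, Sgca 755 and Sgcb 554 over the 6 libraries, at percentiles 95.8, 95.3 and 93.6 of tested coding genes, with ranges that overlapped from one to the next. Lama2 (99.6), Dmd (98.1) and Utrn (92.4) followed and did not differ from each other beyond their spread over libraries, and Dtna (58.4) and Sgcd (55.8) were lowest in this mean over both ages and overlapped as well. The order changed with age. Dag1 was at 1090 per kb at 14 months and 391 at 5 months, where Sgca (644) and Sgcb (594) were above it. In the lower group Dtna had the lowest mean at 14 months, 40.3 per kb, though its values overlapped those of Sgcd (46.1). At 5 months Dtna was at 94.7 per kb, level with Lama2 (94.1) and above Utrn (78.4). The length used matters for the lower genes. Per kilobase of the longest coding transcript, Sgcd (188) came next after Dag1, Sgca and Sgcb, which kept their order, and Utrn (128) was last.

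**Figure D4:**
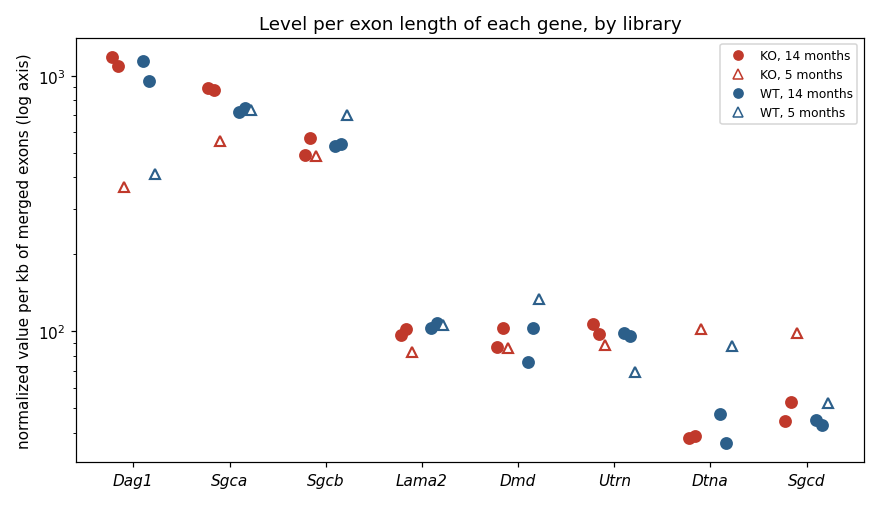
Normalized value per kilobase of merged exons (log axis) for each gene, ordered by its mean, with KO libraries left and WT libraries right in each column. Filled circles are 14-month and open triangles 5-month hearts. Dag1, Sgca and Sgcb form the upper group, and the 5-month Dag1 values (368 in KO and 414 in WT) lie below Sgca and Sgcb.

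Other subunits and partners of the complex were examined with a list of 14 genes, of which 10 were tested. Genotype called 0 by limma and 0 by limma-voom, with 0 at an unadjusted p under 0.05 by limma, where 6.08% of all genes were. The smallest p-values were those of Dtnb, beta-dystrobrevin (0.39 log2, SE 0.24), and Drp2, a dystrophin-related protein (0.68, SE 0.51). Their limma adjusted p-values were 0.745 and 0.751. Between the ages 2 were lower at 14 months and 0 higher, where 16% of all genes were lower. Cav3, the muscle caveolin that binds dystroglycan, had 489, 478 and 683 in KO-1, KO-2 and KO-3, against 457, 391.9 and 826 in WT-1, WT-2 and WT-3. Both 5-month hearts were above all 14-month hearts, and the gene fell by 0.73 log2 at 14 months (SE 0.15, limma adjusted p = 0.00816), a call that held under every alternative run. The interaction was led by Sgce, epsilon-sarcoglycan (0.95, SE 0.23, limma adjusted p = 0.0803), and by Sntb2, a syntrophin (−0.78, SE 0.25, limma adjusted p = 0.124). Neither passed, although Sntb2 did with the rescaling outside mitochondrial genes (−1.05, limma adjusted p = 0.0482).

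The laminin-binding sugar of dystroglycan is built by a chain of enzymes, listed here as 17 genes, all tested. In KO against WT hearts 0 passed by limma, 0 by limma-voom, and 1 had an unadjusted p under 0.05 by limma. Of all genes 6.08% had such a p by limma. Pomt2, which starts the O-mannose chain, stood at 0.24 (SE 0.14, limma adjusted p = 0.745). By age 2 genes were higher and 3 lower at 14 months, where 17.7% and 16% of all genes were. Dpm1 and Dpm3, subunits of the synthase that makes the mannose donor, fell by 1.81 (SE 0.16) and 1.65 log2 (SE 0.21), with limma adjusted p-values of 3.60e-04 and 0.00123. Dpm1 had 262, 216 and 737 in KO-1, KO-2 and KO-3, against 264, 229 and 981 in WT-1, WT-2 and WT-3. Pomt1, the partner of Pomt2, rose by 0.66 (SE 0.16, limma adjusted p = 0.0162), though the call was lost without the libraries numbered 2 (adjusted p = 0.136) and without WT-1 or WT-3 (0.0535 and 0.0588). The interaction was called for 0 of 17, with B4gat1 (0.75, limma adjusted p = 0.0933) and Dpm3 (0.64, limma adjusted p = 0.269) of smallest p.

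Laminin chains and other matrix ligands of dystroglycan made a list of 17 genes, 16 of them tested. By age 8 were higher and 1 lower at 14 months, where 17.7% and 16% of all genes were, and the list median was 0.78 log2, against 0.02 over all genes. Bgn, the proteoglycan biglycan, rose by 1.68 (SE 0.19), Nid1, the laminin linker nidogen, by 1.52 (SE 0.16), and the basement membrane collagens Col4a1 and Col4a2 by 1.43 (SE 0.13) and 1.25 (SE 0.13). Their limma adjusted p-values were 8.37e-04, 7.12e-04, 4.03e-04 and 7.08e-04. The count was 8 higher and 1 lower with quantile normalization, where 2298 of all 13823 genes were called higher and 2241 lower. With the rescaling outside mitochondrial genes it was 10 and 1, against 3403 and 1233 of all genes. Without KO-1 it was 7 and 0, against 1764 and 1610. Without WT-3 the list median was 1.13 log2. Fibroblast markers moved along, with 5 of 10 called higher at 14 months and 0 lower, and summed to 19913 to 22770 at 14 months and 13756 to 20428 at 5 months. Endothelial markers counted 5 of 10 higher and 2 lower. The part of either in the matrix genes was not tested.

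By genotype 0 of the 16 matrix genes passed by limma and 0 by limma-voom. An unadjusted p under 0.05 was found for 2 by limma, where 6.08% of all genes had one. Of the fitted differences 5 were above and 11 below 0, with a median of −0.24 log2. Without KO-3 or WT-3 it was 2 above 0 of 16 and the median −0.14, and the median was −0.13 with the rescaling outside mitochondrial genes. The smallest p-values were those of Col4a1 (−0.30, SE 0.12) and Nid1 (−0.36, SE 0.15), both with a limma adjusted p = 0.745. Fibroblast markers had a median of −0.24 in the same comparison. The interaction was called for 4 of 16, 2 higher and 2 lower, where 2.08% of all genes were called. Fibroblast markers mostly went the way of the 2 higher calls, with 8 of 10 above 0 and a median of 0.59 log2. Of them 1 was called (Col3a1, a fibrillar collagen, 1.10, SE 0.14, limma adjusted p = 0.0293). Other marker lists had medians above 0 too, such as 2.49 for adipocyte, 0.97 for Schwann cell and 0.53 for smooth muscle and pericyte. Only skeletal muscle was below 0, at −0.46. The part of these cell types was not tested. Lama4, a laminin alpha chain, and Lamc1, a gamma chain, stood at 1.13 (SE 0.16, limma adjusted p = 0.0301) and 1.23 (SE 0.17, limma adjusted p = 0.0293). Lama5, another alpha chain, and Nid2 stood at −1.47 (SE 0.17, limma adjusted p = 0.0276) and −1.35 (SE 0.22, limma adjusted p = 0.0362). Lama4 had 1369, 1401 and 665 in KO-1, KO-2 and KO-3, against 1453, 1347 and 1476 in WT-1, WT-2 and WT-3. Lama5 had 1663, 1473 and 2127 in KO-1, KO-2 and KO-3, against 1937, 1878 and 935 in WT-1, WT-2 and WT-3. These differences come from the single 5-month pair, and 0 of the list were called with quantile normalization, with no filter on low values, without the trend and robust options, without WT-1 or without WT-2. Nid2 was also lost with limma-voom and without KO-1 or KO-2.

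Integrin and costamere linkers, the parallel link of the cytoskeleton to the matrix, counted 18 genes, all tested. At 14 months 6 were higher and 2 lower, where 17.7% and 16% of all genes were, with a list median of 0.40 log2 against 0.02 over all genes. Xirp1, an actin-binding repeat protein of the intercalated disc, rose by 1.53 (SE 0.15, limma adjusted p = 4.94e-04), Vcl, vinculin, by 0.88 (SE 0.19, limma adjusted p = 0.00975), Flnc, filamin C, a binding partner of sarcoglycans, by 0.87 (SE 0.11, limma adjusted p = 0.00120) and Plec, plectin, by 0.60 (SE 0.12, limma adjusted p = 0.00738). The call of Vcl was lost without KO-3 (0.59, adjusted p = 0.0791) and that of Plec without the libraries numbered 2. The count was 9 higher and 1 lower with quantile normalization, where 2298 of all 13823 genes were called higher and 2241 lower. With the rescaling outside mitochondrial genes it was 10 and 1, against 3403 and 1233 of all genes. Without the libraries numbered 2 it was 3 and 0, against 1647 and 1364. Smooth muscle and pericyte markers moved the same way, with 4 of 10 called higher at 14 months and 0 lower and sums of 22711 to 25920 at 14 months and 15518 to 20666 at 5 months, as did the fibroblast markers above. Their part in the costamere genes was not tested. The genotypes gave 0 calls by limma and 0 by limma-voom. At an unadjusted p under 0.05 by limma the count was 0, where 6.08% of all genes were. Plec (0.23, SE 0.11) and Flnc (0.19, SE 0.10) had the smallest p, both with a limma adjusted p = 0.745. The interaction was called for 0 of 18, with Ank3 at −0.91 (limma adjusted p = 0.0530) and Itga7, the laminin-binding integrin of muscle, at 0.83 (limma adjusted p = 0.0710). Ank3 passed with the rescaling outside mitochondrial genes (−1.19, adjusted p = 0.0285), where 2 of the list were called lower, and 1 was called higher without KO-1.

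Genes of membrane repair and caveolae, which act on the sarcolemma that the complex protects, counted 11, all tested. KO against WT gave 0 calls by limma and 0 by limma-voom. At an unadjusted p under 0.05 by limma the count was 1, where 6.08% of all genes were. Of all genes tested 6368 were above and 7455 below 0, with a median of −0.02 log2. In this list 1 was above and 10 below 0, with a median of −0.18 log2. Without KO-3 or WT-3 it was 4 above 0 of 11 and the median −0.08, and with the rescaling outside mitochondrial genes the median was −0.07. Macrophage markers were below 0 in 10 of 10, cardiomyocyte markers in 6 of 6 and fibroblast markers in 9 of 10 in the same comparison, and their part was not tested. Myof, myoferlin, stood at −0.60 (SE 0.25) and Anxa2 at −0.37 (SE 0.16), both with a limma adjusted p = 0.745. At 14 months Trim72, a membrane repair protein of muscle, was higher (0.44, SE 0.12, limma adjusted p = 0.0211), and Anxa1 (−0.60, SE 0.15, limma adjusted p = 0.0194) and Cavin4 (−0.52, SE 0.12, limma adjusted p = 0.0140) were lower. Of all genes 17.7% were called higher and 16% lower in the same comparison. All 3 calls were lost without the libraries numbered 2. Trim72 and Anxa1 also lost theirs without WT-1, Trim72 without KO-1 or WT-2 and without the trend and robust options, Anxa1 without KO-2 or WT-3, and Anxa1 and Cavin4 with the rescaling outside mitochondrial genes. In the interaction 1 gene passed, Anxa6 (1.06, SE 0.15, limma adjusted p = 0.0295), which had 2569.9, 2699 and 1516 in KO-1, KO-2 and KO-3 and 2488, 2343 and 2909.9 in WT-1, WT-2 and WT-3. KO-3 was the lowest, and the call was lost under the same alternatives as that of Lama4. The share of all genes called in the interaction was 2.08%.

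**Figure D5:**
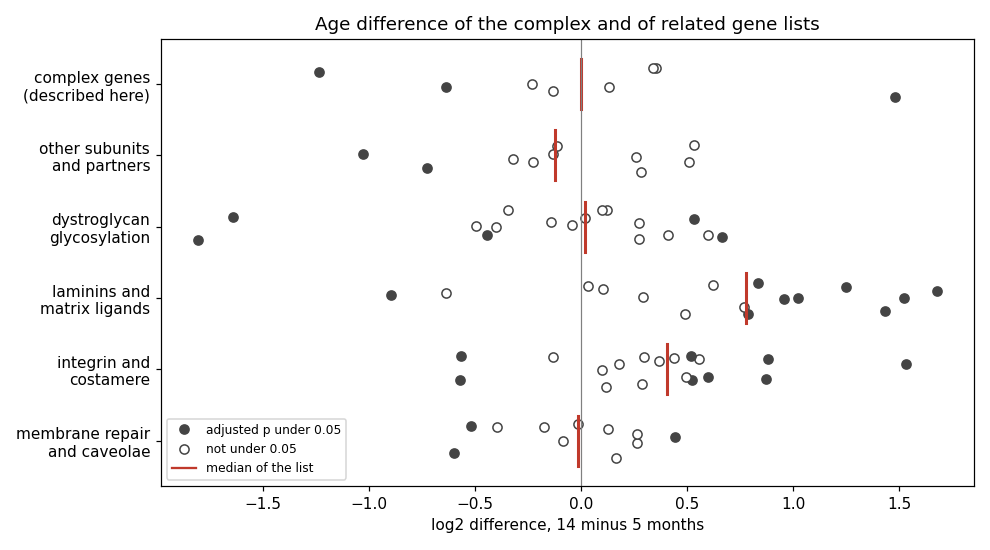
Log2 differences of 14 minus 5 months for every tested gene of the 6 lists, 1 circle a gene, filled where the adjusted p was under 0.05. Red lines are list medians, at 0.78 for laminins and matrix ligands and 0.40 for integrin and costamere genes, against −0.003 for the 8 complex genes, which spread from −1.24 to 1.48.

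The genes whose course over the 6 libraries lay nearest to that of Dmd were Rwdd2b, Gnb3 and Dhodh, with a root mean square difference of 0.0425, 0.0447 and 0.0607 log2 after centring each gene on its mean. For Lama2 they were Kifap3, Ric8a and Klhl2, at 0.0346, 0.0397 and 0.0457. Normalized values, not divided by length, were 59.3 to 107 for Rwdd2b and 65.3 to 108 for Gnb3, below those of Dmd. They were not set per kilobase of exon, so the levels of these genes and of Dmd were not compared. With 6 libraries and 13823 genes, near matches of this kind are a description only.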

How the data were processed

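RNA was taken from whole hearts with Trizol and libraries were made from total RNA, per the labels' protocols. Reads were processed with Salmon 1.5.2 and mm10, per the submitters' processing notes; other settings and library strand are not stated there or in the labels. The deposited values were treated as a normalized gene-level signal, though the way of normalizing is not stated. They are not whole numbers, and the median ratio of a library to the genes' geometric means was 1.00 to 1.01 in each. Only 5.90 to 8.19% of low values lay at whole multiples of a step (tolerance 0.01), so reads were not recovered and the sequencing depth is unknown. Lines without values (108) were left out.

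Symbols, positions and exon lengths came from GENCODE M21 on GRCm38 (mm10), which matched 20122 gene identifiers and left 132 unmatched; 1 list gene was found through a RefSeq synonym. For no pair of libraries did more than 5.46% of genes have values within 1%, so none was a duplicate.

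Tests were made with limma 3.58.1 in R 4.3.3 on log2(value + 1) with trend and robust options, over the 13823 genes at 10 or more in at least 3 libraries (6431 left out). Benjamini-Hochberg adjustment over all of them was used, with a threshold of 0.05. The genotype model held age as a covariate, the age comparison set 14 against 5 months with genotype in the model (3 residual degrees of freedom), and their interaction in a further model (14 minus 5 months of the KO minus WT difference, 2 residual degrees of freedom). Fold changes are on the log2(value + 1) scale. The test between KO and WT was checked on simulated normal values with the fitted spread of each gene. The tests between the ages and of the interaction were not checked in this way.

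Members and lists were chosen with earlier results of these data known. By rule, up to 4 called genes a list and comparison are named, by largest change, or the 2 of smallest p where none was called; the 3 genes nearest to Dmd and to Lama2 are also named. Some genes that the rule names are not reported here, though the list counts hold them. Alternatives were another pseudocount, no filter, quantile normalization, rescaling to the total outside mitochondrial genes, limma-voom with equal library sizes, no trend or robust option, no age term, the replicate number as a block, 14-month libraries only, both libraries numbered 2 left out, and each library left out. Levels per length were added later with the longest coding transcript.

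Libraries of the same number deviated together from their genotype means, with correlations of 0.390, 0.383 and 0.617, but cross pairs at 14 months gave 0.369 and 0.382. Replicate 1 minus replicate 2 correlated by 0.0147 between KO and WT. The agreement thus lies between replicate 3 and the other replicates, which the age term of the model holds. Age and anything else shared by KO-3 and WT-3 cannot be told apart in it. No gene was called with the replicate block, and this changed no call between KO and WT.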

Additional observations from a re-analysis of the deposited data

Results flagged for a closer look

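In 3 related genes a 14-month library lay far from the others. Dtnb was at 105 in KO-1, Nid1 at 2375 in KO-2 and Myof at 297 in WT-1. The gap to the nearest library took 0.849, 0.902 and 0.881 of the whole range of the 4 libraries, above Dixon's 95% limit for 4 values. In all, 41 genes were looked at in this way, and chance alone marks about 1 in 20 groups. None of the 8 complex genes was among them.

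The KO minus WT difference at 14 months minus that at 5 months passed the interaction test of limma in 5 related genes. It was −1.47 log2 for Lama5, −1.35 for Nid2, 1.23 for Lamc1, 1.13 for Lama4 and 1.06 for Anxa6, with adjusted p-values of 0.0276, 0.0362, 0.0293, 0.0301 and 0.0295. At 5 months each genotype is 1 library, so the differences rest on KO-3 and WT-3.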

How the results depend on the processing

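Between KO and WT 0 of the 8 genes were called under any alternative, and 0 of all genes with the replicate block. Of all genes 14 were called in the 14-month hearts alone, and 0 to 5 when a library was left out (5 without KO-3, 5 without WT-3). The sign of small differences turned: Dmd stood at 0.10 at 14 months alone and ran from −0.34 to 0.10 when a library was left out, Dag1 from −0.0756 to 0.12, Sgca from −0.0270 to 0.27 and Dtna from −0.11 to 0.14. Dtna was also at 0.0306 with quantile normalization, 0.11 with the rescaling outside mitochondrial genes and 0.00675 with limma-voom. Between the ages 3011 genes were called without the libraries numbered 2, and 3246 to 4533 when a library was left out. The rescaling moved the median of all genes by 0.20 log2, called 5 of the 8 genes (Utrn, Sgca and Lama2 added, Sgcd lost), put Sgcb at 0.0646 and made 73.4% of all calls higher, against 52.5%. It moved the median by 0.10 between KO and WT and by −0.27 in the interaction. The median age difference of the 8 genes turned to 0.09 with quantile normalization and 0.20 with the rescaling, against −0.003. Without a library, Dmd ran from −0.60 to 0.13, Sgcb from −0.39 to 0.12, and 2 to 4 of the 8 genes were called. In the interaction the count of all genes fell to 4 with no filter, 12 with quantile normalization, 134 with limma-voom and 7 without trend and robust options, rose to 750 with the rescaling, and ran from 13 to 234 without a 14-month library. The rescaling called 1 of the 8 genes there and put Lama2 at −0.0200. Mitochondrially encoded genes made up 44.3 to 49.4% of the total in the 14-month libraries, 41.6% in KO-3 and 40.0% in WT-3. WT-3 also had the largest total, 23.5 M. The cause of these changes was not tested. The interaction could not be fitted without a 5-month library. No paired analysis was possible between the ages because the replicate numbers follow age. Unknown depth limits what low values can show.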

Other observations

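Some partners of the complex were hardly seen in these hearts. Nos1, the neuronal nitric oxide synthase that dystrophin and syntrophin anchor in skeletal muscle, had no more than 19.96 in KO hearts, its value in KO-2, and no more than 5.68 in WT hearts, its value in WT-2. Sntg1 and Sntg2, the gamma syntrophins, stayed at no more than 8.43 and 11.4. Lama1, the laminin alpha chain of early embryos, was at no more than 0.923. These genes did not reach the expression filter and were not tested.

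The 8 complex genes together, summed per kilobase of merged exons, came to 2936, 2934 and 1868 in KO-1, KO-2 and KO-3, against 2763, 2624 and 2297 in WT-1, WT-2 and WT-3. Dag1 made up 40.3, 37.1 and 19.7% of that sum in KO-1, KO-2 and KO-3, and 41.2, 36.3 and 18.0% in WT-1, WT-2 and WT-3. Sgcd per kilobase stood at 0.0906, 0.0924 and 0.203 times Sgcb in KO-1, KO-2 and KO-3, against 0.0839, 0.0790 and 0.0741 times in WT-1, WT-2 and WT-3, with KO-3 apart from the rest.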
